A study of Mus musculus with 21 samples.

Results

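The 5 leukocyte microRNAs miR-142a-3p, miR-142a-5p, miR-150-5p, miR-155-5p and miR-223-3p were taken by name from a table of 1903 named mature microRNAs measured in mouse left ventricular myocardium. The table covers 21 C57BL/6J mice with 1 small RNA library per mouse. In 5 mice (TAC+PDE5A-I), transverse aortic constriction (TAC), a surgery that loads the left ventricle with pressure, was followed by the PDE5A inhibitor sildenafil, and in 6 mice (TAC+PDE9A-I) it was followed by the PDE9A inhibitor PF-04449613. A further 5 mice had TAC with no drug (TAC) and 5 had sham surgery with no drug (Sham). Both enzymes break down cyclic GMP. Each drug was given for 4 weeks from 1 week after surgery. The sources used here give neither the drug doses nor the age of the mice, and no group received a drug after sham surgery, so a drug effect without pressure overload was not measured.

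These microRNAs are best known from blood cells. miR-142 is made in all blood-forming lineages and both arms of its hairpin are used, miR-150 is abundant in mature B and T lymphocytes, and miR-223 is the typical microRNA of neutrophils and monocytes. miR-155 is processed from the long noncoding transcript Mir155hg (Bic) when lymphoid and myeloid cells are activated. In whole heart tissue they can come from blood left in the vessels, from resident macrophages and from any cells that have entered. A lower level can therefore stand, among other readings, for fewer such cells or for less of the microRNA in each cell. These cannot be told apart in bulk tissue. A lower read count can also come with RNA quality or library preparation, and their part was not tested.

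The mature sequences show which reads each value counts, and their base composition returns in the comparisons. They are given from 5′ to 3′ from RefSeq on GRCm38.p6, with the seed (bases 2 to 8, which pairs with target transcripts) in capitals.
miR-142a-3p: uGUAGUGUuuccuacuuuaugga
miR-142a-5p: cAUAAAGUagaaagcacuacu
miR-155-5p: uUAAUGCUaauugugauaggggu
miR-223-3p: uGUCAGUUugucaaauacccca
No seed was shared among these 4, and none of the other microRNAs with a RefSeq sequence had any of them (1618 of the 1903 in the table have one). The 4 are poor in G and C: miR-142a-5p holds 33.3%, miR-142a-3p and miR-155-5p 34.8% each, and miR-223-3p 40.9%. The miR-142a arms lie at chr11:87756867-87756887 (5p) and chr11:87756903-87756925 (3p) on the plus strand, in the Mir142 hairpin within an intron of the lincRNA Mir142hg (GENCODE). miR-142b, annotated on the opposite strand, overlaps miR-142a-3p by 20 bases and had 0 counts in all 21 libraries. miR-155-5p lies at chr16:84714143-84714165 in an exon of Mir155hg, and miR-223-3p at chrX:96242884-96242905 in an exon of F630028O10Rik, both on the plus strand.

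Values are in CPM, counts scaled to a common library size of 1e6 with the trimmed mean of M values (TMM), and a microRNA was called at an adjusted p under 0.05 in edgeR's quasi-likelihood test over the 561 microRNAs that passed a filter on low counts, all 5 members included. Total counts were 1205417 to 3969716 per TAC+PDE5A-I library, 1546318 to 7532591 in TAC+PDE9A-I, 5373960 to 8497792 in TAC and 3766517 to 7490436 in Sham. TAC+PDE5A-I replicates 3, 4 and 5 and TAC+PDE9A-I replicate 5 were under 2000000, and they stood apart from the other 17: they had 364 to 396 microRNAs with a count, against 490 to 613, and a count-weighted GC content of 47.2% to 48.6%, against 44.6% to 46.0%. The comparisons of TAC+PDE5A-I are therefore also given without these 4 libraries, a choice made after their totals were seen. TAC+PDE5A-I replicates 1 and 2, which remain there, had a GC content of 46.0% each. The highest was 45.1% in TAC, 45.0% in Sham and 45.3% in TAC+PDE9A-I without replicate 5. These GC contents cover only counts of microRNAs with a RefSeq sequence. Such counts were 32.0% to 37.2% of the total in the 4 libraries under 2000000 and 50.9% to 64.9% in the other 17. The heart muscle microRNAs miR-499-5p, miR-208a-3p, miR-1a-3p and miR-133a-3p each had counts in every group, and their summed level was 140623 to 268963 CPM in TAC+PDE5A-I, 72314 to 195339 CPM in TAC+PDE9A-I, 77729 to 144054 CPM in TAC and 139528 to 177857 CPM in Sham. Most of each sum was miR-133a-3p. In TAC+PDE5A-I its mean was 189603 CPM, against 395 CPM of miR-1a-3p, 113 CPM of miR-499-5p and 46.9 CPM of miR-208a-3p. The mice carry separate ear tags, so replicates are separate animals.

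In Sham hearts the lymphocyte microRNA miR-150-5p was the most abundant of the 5, at 1369 ± 200 CPM (SD, n = 5 mice here and for the other Sham values), and ranked 54 of the 561. miR-142a-3p followed with 653 ± 67.3 CPM (rank 73) and miR-142a-5p with 256 ± 86.1 CPM (rank 107). The levels of miR-155-5p, at 117 ± 11.7 CPM (rank 136), and miR-223-3p, at 104 ± 20.9 CPM (rank 142), lay within their spread of each other. Taken as a sum, the 5 made up 0.226% ± 0.0222 of the Sham counts. Ligation and amplification differ between small RNAs, so this order is one of reads and not of molecules.

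**Figure D1:**
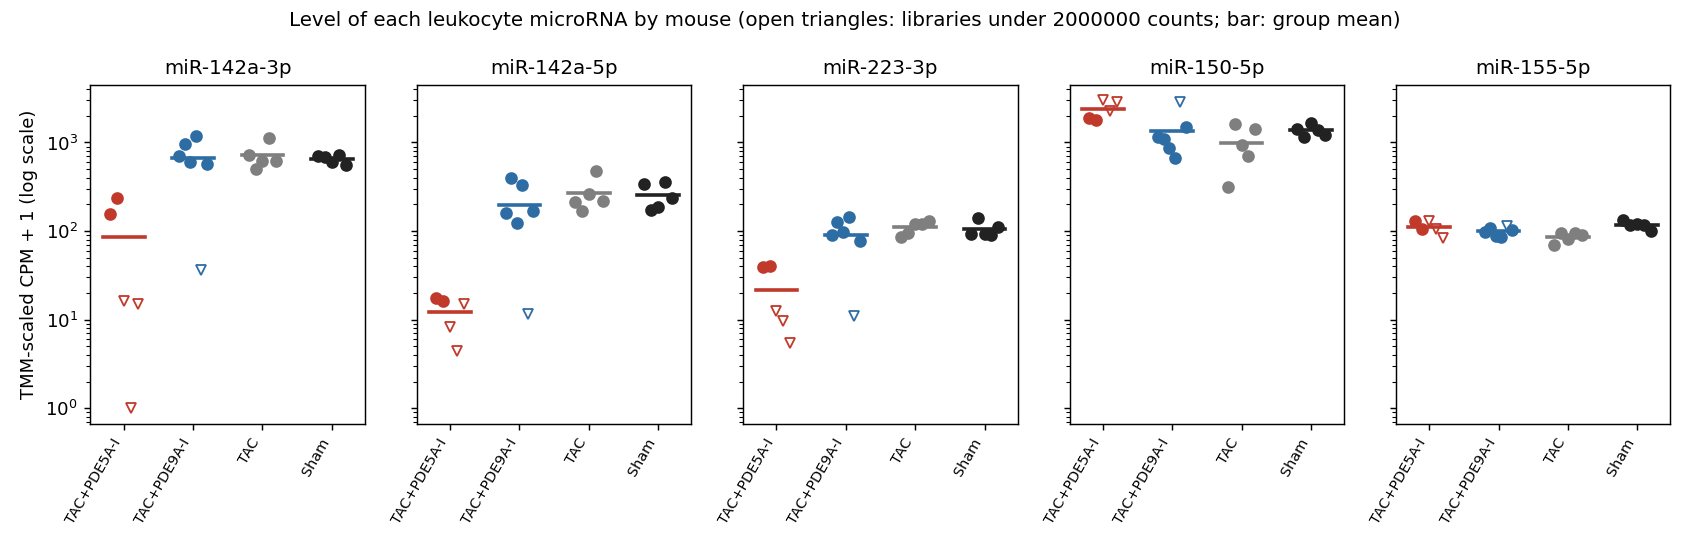
TMM-scaled CPM plus 1 (log axis) of the 5 leukocyte microRNAs in each mouse, with TAC+PDE5A-I, TAC+PDE9A-I, TAC and Sham from left to right; horizontal bars are group means and open triangles are the 4 libraries under 2000000 counts. miR-142a-3p, miR-142a-5p and miR-223-3p are lower in every TAC+PDE5A-I library than in every TAC and Sham library, and TAC+PDE9A-I replicate 5 lies with the low ones.

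TAC against Sham asks whether pressure overload changed these microRNAs. None of the 5 was called, against 2.32% of all tested microRNAs in this comparison. By edgeR, 1 of the 5 had an unadjusted p under 0.05, as had 88 of all 561 tested microRNAs. DESeq2 called 1 of the 5 and 46 over all, and limma voom called 0 of the 5 and 21 over all. That 1 was miR-155-5p, the activation-linked member. It had 68.1, 93.5, 79.9, 95.1 and 88.3 CPM in TAC hearts, against 132, 117, 121, 117 and 99.1 CPM in Sham hearts. Every TAC heart was below every Sham heart, as was the case for 8.56% of all tested microRNAs. Its log2 fold change was -0.46 ± 0.15 (SE), with an adjusted p of 0.111 in edgeR's test over all microRNAs. DESeq2 gave it -0.47 (adjusted p = 0.00126), and edgeR without the 4 libraries under 2000000 counts, all from the drug groups, gave -0.48 (adjusted p = 0.0272). In the latter fit 4.39% of 660 tested microRNAs were lower. These were the only 2 of 23 other settings that called it. The edgeR fit of TAC and Sham alone gave -0.33 ± 0.11 (adjusted p = 0.0559). With scaling by total counts edgeR gave -0.29 (adjusted p = 0.397), and with the GC correction described below -0.38 (adjusted p = 0.926).

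The other 4 members overlapped between TAC and Sham. miR-150-5p spread most after TAC: it had 309, 1600, 929, 700 and 1404 CPM in TAC hearts, against 1410, 1155, 1665, 1397 and 1216 CPM in Sham hearts. TAC replicates 1, 3 and 4 were below every Sham heart and replicates 2 and 5 were not, and the log2 fold change was -0.47 ± 0.38 (adjusted p = 0.747 in edgeR's test). miR-142a-3p had a log2 fold change of 0.14 ± 0.85, miR-142a-5p 0.06 ± 0.56 and miR-223-3p 0.07 ± 0.51, with an adjusted p of 0.986 each in edgeR's test. The 95% intervals reached from -1.65 to 1.92 for miR-142a-3p and from -1.12 to 1.23 for miR-142a-5p. This fit estimates the spread of each microRNA over all 4 groups, the drug libraries included. An edgeR fit of TAC and Sham alone gave 0.26 ± 0.19 for miR-142a-3p (adjusted p = 0.379). The same fit gave 0.18 ± 0.29 for miR-142a-5p (adjusted p = 0.730) and 0.19 ± 0.17 for miR-223-3p (adjusted p = 0.473).

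TAC+PDE5A-I against TAC asks what sildenafil did under pressure overload. Here 3 members fell, miR-142a-3p, miR-142a-5p and the myeloid miR-223-3p, and 1 rose, the lymphocyte microRNA miR-150-5p. The background was high: 24.8% of all tested microRNAs fell and 21.6% rose. The split of the calls moved with the scaling, from 121 higher and 139 lower with TMM to 91 and 155 with DESeq2 size factors and 172 and 110 with upper-quartile scaling.

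The miR-142a arms fell furthest. miR-142a-5p had 16.8, 15.2, 7.25, 3.37 and 14.2 CPM in TAC+PDE5A-I hearts, against 213, 168, 264, 472 and 215 CPM in TAC hearts. The groups did not overlap, as for 20.7% of all tested microRNAs in this direction, and all 5 TAC+PDE5A-I libraries were low, the deeper replicates 1 and 2 included. The log2 fold change was -4.52 ± 0.66 (SE, adjusted p = 0.000181, edgeR), a 23.5-fold lower mean.

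The other arm, miR-142a-3p, had 155, 236, 15.2, 0 and 14.2 CPM in TAC+PDE5A-I hearts, against 721, 499, 609, 1136 and 621 CPM in TAC hearts. Replicates 1 and 2 were below every TAC heart but well above replicates 3, 4 and 5. The 0 in replicate 4 allows up to 3 counts, or 2.16 CPM by its total counts, and covers counting error only, since the reads carry no molecular identifiers and so are not independent molecules. The log2 fold change was -3.08 ± 0.93 (adjusted p = 0.0125, edgeR) and -4.08 without TAC+PDE5A-I replicate 2, the highest library of its group.

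miR-223-3p had 38.3, 39.8, 11.6, 8.76 and 4.48 CPM in TAC+PDE5A-I hearts, against 84.8, 94.0, 119, 120 and 129 CPM in TAC hearts. The groups did not overlap, and replicates 1 and 2 were again the higher TAC+PDE5A-I libraries. The log2 fold change was -2.37 ± 0.55 (adjusted p = 0.00301, edgeR), a 5.31-fold lower mean.

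miR-150-5p went the other way, with 1891, 1786, 2989, 2289 and 2887 CPM in TAC+PDE5A-I hearts, against 309, 1600, 929, 700 and 1404 CPM in TAC hearts. The groups did not overlap, as for 13.2% of all tested microRNAs in this direction, and replicates 3, 4 and 5 were the highest. The log2 fold change was 1.26 ± 0.39 (adjusted p = 0.0140, edgeR). The call rested on single libraries: the adjusted p was 0.0594 without TAC replicate 3, and 0.0736, 0.0507 and 0.0630 without TAC+PDE5A-I replicate 3, 4 or 5.

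miR-155-5p had 129, 104, 128, 104 and 83.6 CPM in TAC+PDE5A-I hearts, against 68.1, 93.5, 79.9, 95.1 and 88.3 CPM in TAC hearts. The groups overlapped through TAC+PDE5A-I replicate 5. Its log2 fold change of 0.37 ± 0.15 did not pass in edgeR's test over all microRNAs (adjusted p = 0.0557), although it did with scaling by total counts (0.39, adjusted p = 0.0358) and with upper-quartile scaling (0.85, adjusted p = 0.00181).

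**Figure D2:**
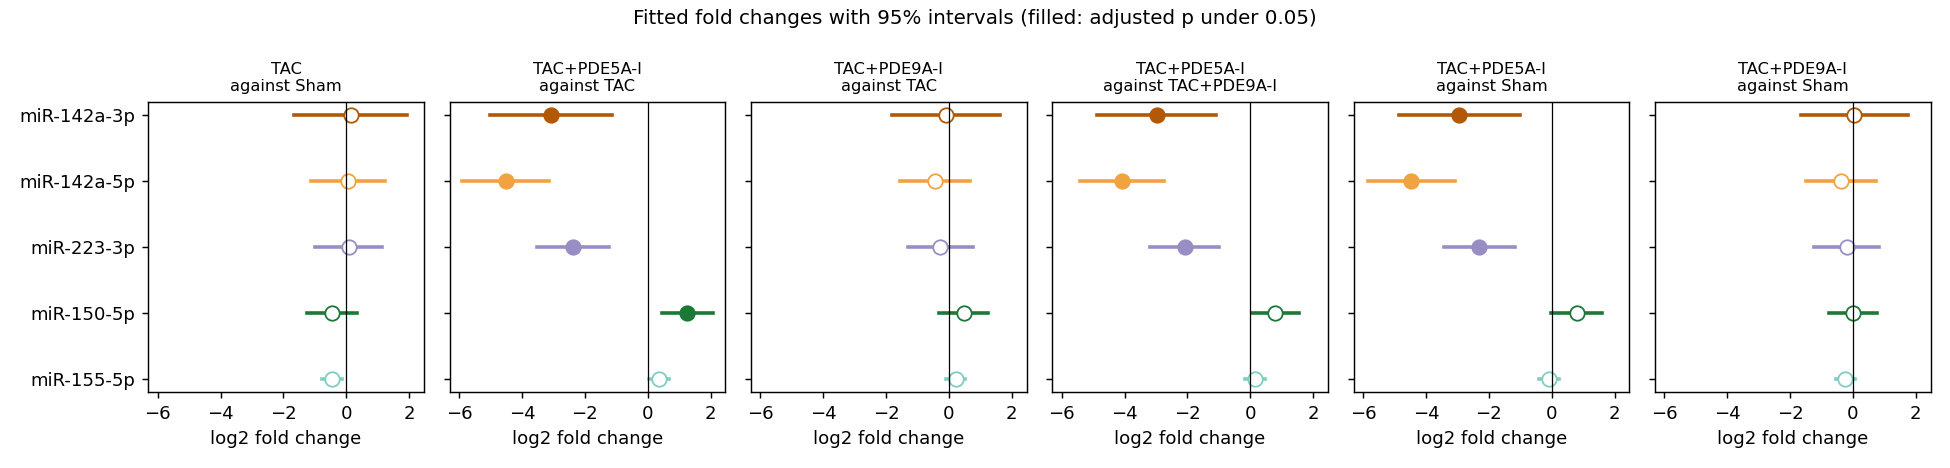
Log2 fold changes of the 5 leukocyte microRNAs with 95% intervals in the 6 comparisons, from edgeR's fit of all 21 libraries; filled points passed an adjusted p of 0.05. miR-142a-3p, miR-142a-5p and miR-223-3p lie left of 0 in the 3 comparisons of TAC+PDE5A-I, with intervals that leave out 0, and their intervals reach across 0 in the other 3.

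Without the 4 libraries under 2000000 counts, 2 TAC+PDE5A-I hearts remained, and edgeR called 12.3% of 660 tested microRNAs lower and 6.21% higher. The 3 falls were smaller and still passed in edgeR's test: -4.04 ± 0.59 for miR-142a-5p (adjusted p = 0.000191), -1.86 ± 0.34 for miR-142a-3p (adjusted p = 0.00131) and -1.47 ± 0.27 for miR-223-3p (adjusted p = 0.00142). miR-150-5p no longer passed, at 0.90 ± 0.42 (adjusted p = 0.144), and neither did miR-155-5p, at 0.47 ± 0.16 (adjusted p = 0.0552).

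TAC+PDE9A-I against TAC asks the same of the PDE9A inhibitor. None of the 5 members was called and none had an unadjusted p under 0.05. Among all tested microRNAs edgeR called 0 (0%), with 16 at an unadjusted p under 0.05, DESeq2 called 4, none of them a member, and limma voom called 0. The lowest, median and highest TAC+PDE9A-I hearts had 35.6, 650 and 1178 CPM of miR-142a-3p, 10.6, 162 and 391 CPM of miR-142a-5p, and 9.998, 92.6 and 142 CPM of miR-223-3p. The log2 fold changes against TAC were -0.09 ± 0.82, -0.44 ± 0.54 and -0.28 ± 0.49 for these 3 members in that order. Those of miR-150-5p and miR-155-5p were 0.46 ± 0.37 and 0.22 ± 0.15, all 5 with an adjusted p of 0.991 in edgeR's test.

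The lowest of the 6 was TAC+PDE9A-I replicate 5 for miR-142a-3p, miR-142a-5p and miR-223-3p alike, a mouse that received no sildenafil. Its 35.6, 10.6 and 9.998 CPM of these microRNAs stood against 565 to 1178, 123 to 391 and 76.3 to 142 CPM in the other 5 hearts of its group. It also had the highest miR-150-5p of its group, 2893 CPM against 667 to 1511 CPM, while its 113 CPM of miR-155-5p were just above the 85.2 to 107 CPM of the others. For miR-142a-5p, miR-223-3p, miR-150-5p and miR-155-5p this heart lay within the range of TAC+PDE5A-I replicates 3, 4 and 5, and for miR-142a-3p above their 0 to 15.2 CPM. It shares with them a total under 2000000 counts.

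**Figure D3:**
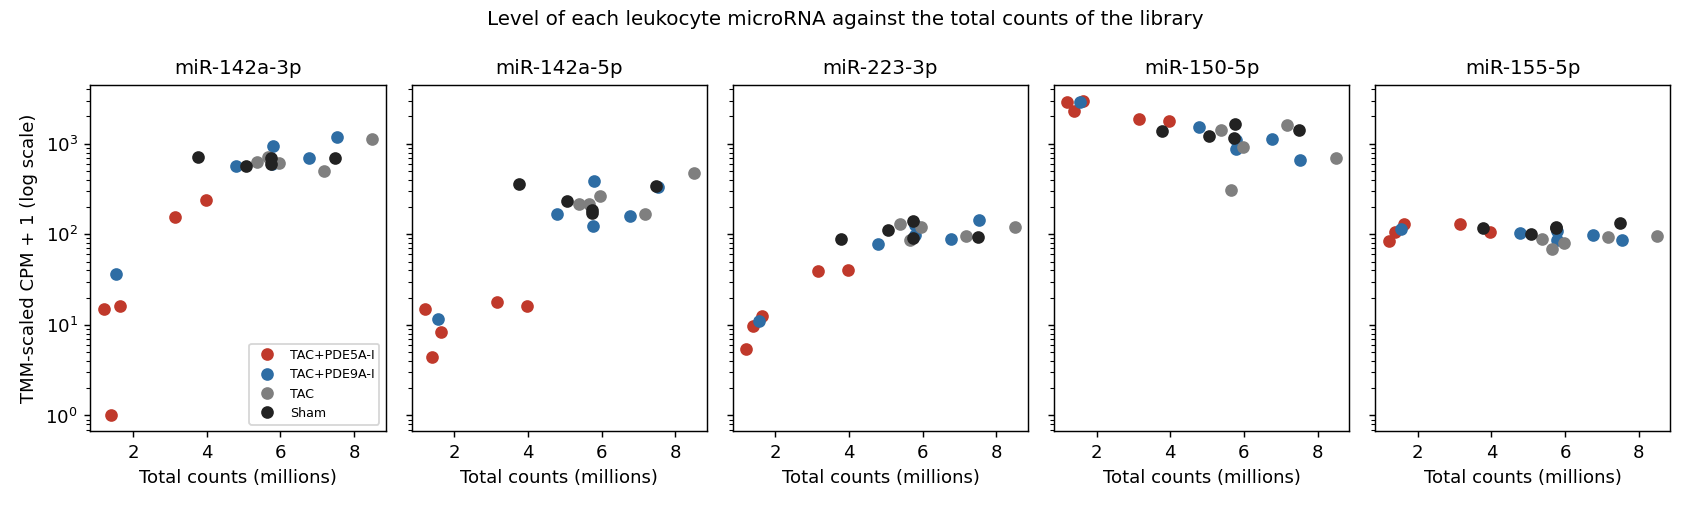
TMM-scaled CPM plus 1 (log axis) of each leukocyte microRNA against the total counts of its library (axis in units of 1e6), 1 point per mouse, coloured by group. The 4 libraries under 2000000 hold at most 35.6 CPM of miR-142a-3p and at least 2289 CPM of miR-150-5p, whichever drug was given, and miR-155-5p is level across the range of totals.

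Together the 5 members made up 0.268% ± 0.0386 of all counts in TAC+PDE5A-I (n = 5), 0.252% ± 0.0410 in TAC+PDE9A-I (n = 6), 0.220% ± 0.0531 in TAC (n = 5) and 0.226% ± 0.0222 in Sham (SD, n = 5). Within that sum, miR-150-5p took 90.6% ± 6.69 in TAC+PDE5A-I, 54.5% ± 22.8 in TAC+PDE9A-I, 43.7% ± 18.5 in TAC and 54.6% ± 4.63 in Sham. It took 94.5% to 96.1% in the 4 libraries under 2000000 counts, against 22.2% to 84.8% in the other 17.

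**Figure D4:**
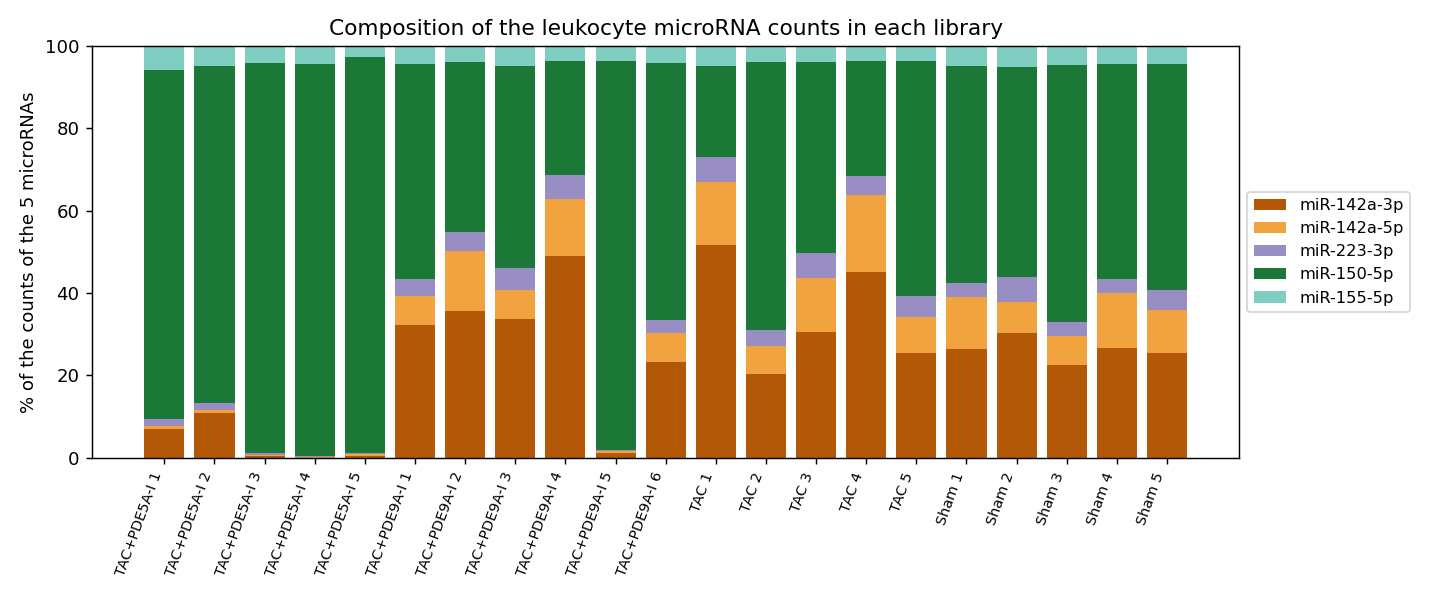
Share (%) of each leukocyte microRNA in the summed counts of the 5, 1 bar per library, ordered as TAC+PDE5A-I, TAC+PDE9A-I, TAC and Sham. miR-150-5p fills 94.5% to 96.1% of the bars of the 4 libraries under 2000000 counts and 22.2% to 84.8% of the others.

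TAC+PDE5A-I against TAC+PDE9A-I compares the drug groups at the same time after surgery. It is also the test of the difference between their fold changes against TAC. The groups differ in library depth too, with TAC+PDE5A-I replicates 3, 4 and 5 and TAC+PDE9A-I replicate 5 under 2000000 counts. The parts of drug and depth in this difference were not tested. Again miR-142a-3p (-2.98 ± 0.91, adjusted p = 0.0190), miR-142a-5p (-4.08 ± 0.64, adjusted p = 0.000624) and miR-223-3p (-2.09 ± 0.53, adjusted p = 0.00989) were lower in edgeR's test, against 19.6% of all tested microRNAs. All 3 overlapped between the groups, through TAC+PDE9A-I replicate 5. Without the 4 libraries under 2000000 counts the 3 differences were -2.05, -3.88 and -1.45 (adjusted p = 0.000693, 0.000297 and 0.00172, edgeR). In that fit 12.7% of 660 tested microRNAs were lower. A fit of these 2 groups alone called 0 of the 5 members, with adjusted p of 0.123, 0.0757 and 0.0966 for the same 3, and 0 of the 466 microRNAs it tested. The call of miR-142a-3p was lost without TAC+PDE5A-I replicate 3 or 5 (adjusted p = 0.0642 and 0.0592). miR-150-5p differed by 0.80 ± 0.36 (adjusted p = 0.0930), and by 0.99 without TAC+PDE9A-I replicate 5 (adjusted p = 0.0159). For miR-155-5p the difference was 0.15 ± 0.15 with a 95% interval from -0.15 to 0.46.

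Set against Sham, the drug groups showed where the levels ended. The comparisons of a drug group with Sham and with TAC share the drug libraries, so they are not independent of each other. In TAC+PDE5A-I, miR-142a-3p (-2.94 ± 0.92, adjusted p = 0.0152), miR-142a-5p (-4.46 ± 0.66, adjusted p = 0.000106) and miR-223-3p (-2.30 ± 0.55, adjusted p = 0.00321) were below Sham in edgeR's test, where 23.5% of all tested microRNAs were lower. None of the 3 overlapped with Sham, as was so for 21.6% of all tested microRNAs in this direction. The first of these was lost without TAC+PDE5A-I replicate 3 (adjusted p = 0.0511) and in a fit of the 2 groups alone (adjusted p = 0.0508). The 3 values against Sham were -1.74, -4.00 and -1.41 without the 4 libraries under 2000000 counts (adjusted p = 0.00154, 0.000172 and 0.00150, edgeR). In that fit 13% of 660 tested microRNAs were lower than in Sham. miR-150-5p was higher in every TAC+PDE5A-I heart than in any Sham heart, as were 11.2% of all tested microRNAs, but with 0.79 ± 0.38 it did not pass (adjusted p = 0.104), nor with 0.43 without the 4 libraries (adjusted p = 0.519). miR-155-5p stood at -0.09 ± 0.15 (adjusted p = 0.669), and at -0.27 with DESeq2, which called it (adjusted p = 0.0435). In TAC+PDE9A-I, edgeR called none of the 5 against Sham, and none had an unadjusted p under 0.05, while 1.96% of all tested microRNAs were called. By edgeR 63 of all tested microRNAs had an unadjusted p under 0.05 in that comparison. DESeq2 and limma voom also called 0 of the 5 there, with 36 and 12 called over all microRNAs.

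Base composition moved with the comparisons of the drug groups. Across the 487 tested microRNAs with a RefSeq sequence, the log2 fold change of TAC+PDE5A-I against TAC had a Spearman rho of 0.70 with GC content. The rho was 0.69 for TAC+PDE5A-I against TAC+PDE9A-I and 0.67 against Sham, 0.35 for TAC+PDE9A-I against TAC and 0.32 against Sham, and 0.04 for TAC against Sham. Without the 4 libraries under 2000000 counts (573 microRNAs) it was 0.45 for TAC+PDE5A-I against TAC, -0.01 for TAC+PDE9A-I against TAC and 0.04 for TAC against Sham. All points of a comparison share the same libraries. In the GC range of the 4 members with a sequence, 59 of 105 microRNAs fell and 6 rose, with a median log2 fold change of -1.97; without the 4 libraries 33 of 120 fell, with a median of -1.15. Against the median of -1.97 stand -4.52 for miR-142a-5p, -3.08 for miR-142a-3p and -2.37 for miR-223-3p, while miR-155-5p, with the same GC content as miR-142a-3p, had 0.37. After a correction of each library for GC content, the log2 fold change was -1.74 for miR-142a-5p (adjusted p = 0.00367) and -0.96 for miR-223-3p (adjusted p = 0.00727), while miR-142a-3p no longer passed, at -1.32 (adjusted p = 0.0550), nor did it against TAC+PDE9A-I (-1.41, adjusted p = 0.0598) or Sham (-1.14, adjusted p = 0.0865). The same correction moved miR-155-5p in TAC+PDE5A-I against TAC to 3.29 (adjusted p = 0.00246, all from edgeR), where the uncorrected 0.37 did not pass. After the correction 104 of the 487 microRNAs were called higher and 47 lower in TAC+PDE5A-I against TAC. With the correction and without the 4 libraries, miR-142a-5p still passed in TAC+PDE5A-I against TAC, at -2.58 (adjusted p = 0.000363). Neither miR-142a-3p, at -0.58 (adjusted p = 0.136), nor miR-223-3p, at -0.72 (adjusted p = 0.0777), passed there, and miR-155-5p was at 1.77 (adjusted p = 4.26e-06, edgeR). In this setting 41 of 573 microRNAs were called higher and 32 lower.

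**Figure D5:**
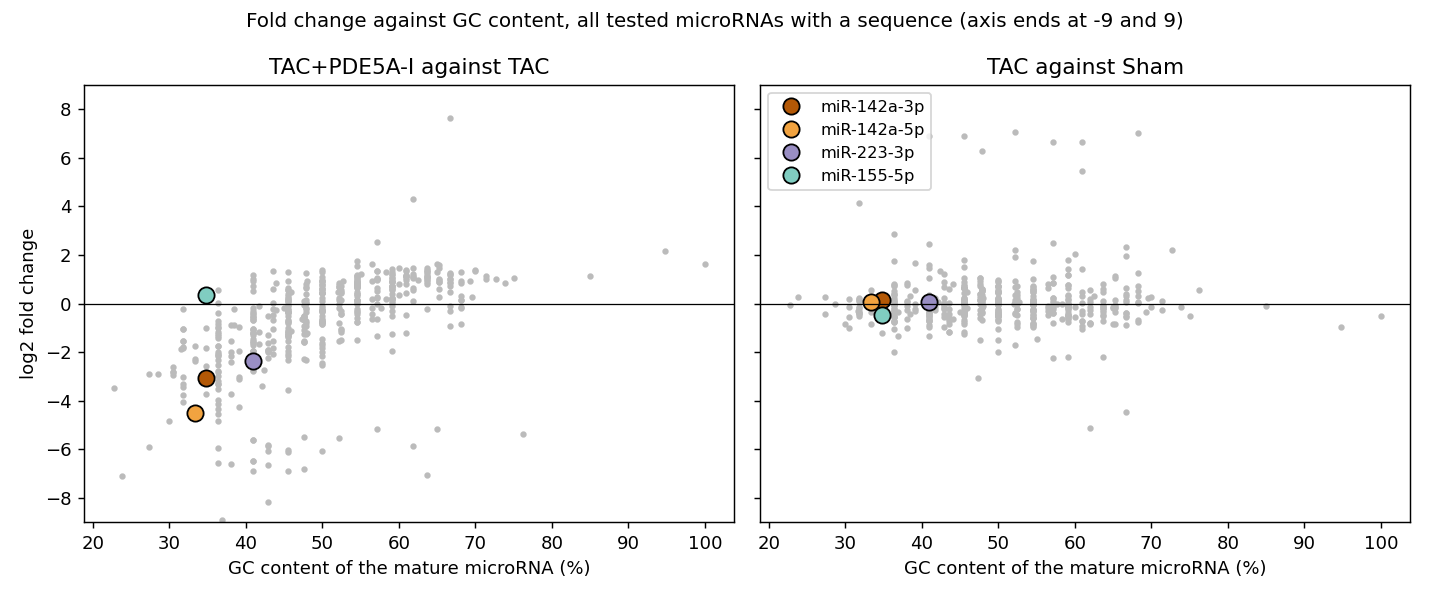
Log2 fold change against GC content (%) of the mature microRNA for the 487 tested microRNAs with a sequence, in TAC+PDE5A-I against TAC (left) and TAC against Sham (right), with 4 leukocyte microRNAs marked; the vertical axis ends at -9 and 9, which leaves out 4 points on the left and 0 on the right. Low-GC microRNAs are lower on the left, miR-155-5p lies above its neighbours there, and the cloud on the right is flat.

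The 2 arms of a hairpin leave the same precursor, so their ratio within a library does not depend on its scaling. For miR-142a the 3p arm was the more abundant, with a mean log2 ratio of 5p to 3p counts of -0.94 ± 2.93 in TAC+PDE5A-I, -1.84 ± 0.35 in TAC+PDE9A-I, -1.47 ± 0.23 in TAC and -1.41 ± 0.44 in Sham. The wide spread in TAC+PDE5A-I came with low counts: 5 and 0 in replicate 4, 10 and 21 in replicate 3 and 19 and 19 in replicate 5, for 5p and 3p in that order. Replicates 1 and 2 had 56 and 518 and 68 and 1054 counts. For miR-150 the 5p arm dominated by 7.80 ± 0.30, 7.64 ± 0.39, 7.37 ± 0.92 and 7.53 ± 0.27 on the log2 scale in TAC+PDE5A-I, TAC+PDE9A-I, TAC and Sham. For miR-223 it was the 3p arm, by -3.90 ± 0.98, -4.50 ± 0.48, -5.81 ± 2.62 and -4.53 ± 0.61 in the same groups. The TAC mean rests on replicate 2, with 0 counts of 5p and a log2 ratio of -10.45, against -5.29 to -4.29 in the other 4 TAC hearts. Without it the difference between TAC and Sham was -0.13 in place of -1.29, and that between TAC+PDE5A-I and TAC 0.75 in place of 1.91. miR-223-5p also had 0 counts in the 4 libraries under 2000000. None of 18 two-sided exact permutation tests of these ratios passed (lowest adjusted p = 0.630), and the difference for miR-142a in TAC+PDE5A-I against TAC was 0.52, or -0.58 without replicate 4. It was -2.10 for miR-142a and 2.81 for miR-223 without the 4 libraries (exact permutation test, lowest adjusted p = 0.171 over the 18). With 2 against 5 mice there are 21 arrangements, so p cannot be under 0.0476, the value for miR-142a. Adjusted over the 18, such a p can hardly pass, so these tests cannot decide. With all libraries kept, a pseudocount of 5 in place of 0.5 moved the miR-223 difference between TAC+PDE5A-I and TAC from 1.91 to 2.88. This did not pass either (adjusted p = 0.0714, exact permutation test). TAC+PDE5A-I replicates 3, 4 and 5 had 16, 13 and 6 counts of miR-223-3p and 0 of the 5p arm, so the pseudocount weighs there. miR-155-3p had too few counts for a ratio, 50 in all 21 libraries.

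Of 13 other microRNAs linked to leukocytes, 9 passed the filter on low counts. In TAC+PDE5A-I against TAC, 4 rose and 1 fell, with a median log2 fold change over the 9 of 0.25, beside -0.31 over all 561. The 4 were miR-342-5p (1.08 ± 0.31, adjusted p = 0.0104), the second arm miR-150-3p (1.01 ± 0.40, adjusted p = 0.0449), miR-181a-5p, known from developing lymphocytes (0.67 ± 0.20, adjusted p = 0.0124), and miR-181b-5p (0.48 ± 0.18, adjusted p = 0.0333, edgeR). miR-147-3p, which is induced in stimulated macrophages, fell, with 0.837 ± 1.17 CPM in TAC+PDE5A-I and 8.02 ± 3.07 CPM in TAC (n = 5 each), a log2 fold change of -2.90 ± 0.78 (adjusted p = 0.00686, edgeR). miR-146a-5p, a feedback inhibitor of innate immune signalling, did not pass (-0.53 ± 0.37, adjusted p = 0.256). None of the 4 that rose passed without the 4 libraries under 2000000 counts (lowest adjusted p = 0.0592, miR-342-5p), while miR-147-3p did, at -1.92 (adjusted p = 0.00748, edgeR). None of the 9 was called in TAC against Sham or in TAC+PDE9A-I against TAC. miR-142b and miR-511-5p were at 0 in all 21 libraries.

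MicroRNAs of other cell types moved in the same comparison. All 3 erythroid microRNAs fell in TAC+PDE5A-I against TAC: miR-144-3p (-4.84), miR-144-5p (-2.92) and miR-451a (-1.97). Their summed level was 23.1 to 417 CPM in TAC+PDE5A-I, 62.5 to 1457 CPM in TAC+PDE9A-I, 445 to 1211 CPM in TAC and 472 to 1450 CPM in Sham. Of the heart muscle microRNAs miR-499-5p (-2.37), miR-208a-3p (-3.31) and miR-1a-3p (-3.41) fell and miR-133a-3p (0.82) rose. The endothelial miR-126a-5p (-3.28) and the stromal miR-199a-5p (-1.56) fell too, while miR-126a-3p (-1.12) and miR-214-3p (0.89) did not pass. Without the 4 libraries under 2000000 counts miR-144-3p (-4.64), miR-144-5p (-1.97), miR-208a-3p (-2.21), miR-1a-3p (-2.18) and miR-126a-5p (-2.12) still passed in edgeR's test. Those that no longer did were miR-451a (-0.85), miR-499-5p (-1.33), miR-133a-3p (0.45) and miR-199a-5p (-1.13). The part of blood content, RNA quality or library preparation in the falls of the leukocyte microRNAs was not tested.

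The microRNAs most like each member were those whose log2 ratio to it varied least over the 21 libraries, out of 298 with a mean of at least 10 CPM. For miR-142a-3p these were miR-101a-3p (SD of the log2 ratio 0.76), miR-1a-3p (1.099) and miR-215-5p (1.102), and for miR-142a-5p miR-32-5p (0.62), miR-101b-3p (0.69) and miR-98-3p (0.72). Those nearest to miR-223-3p were miR-872-5p (0.33), miR-15a-5p (0.35) and miR-30d-3p (0.41). miR-149-5p (0.21), miR-208a-5p (0.31) and miR-423-3p (0.36) were nearest to miR-150-5p, and miR-30d-5p (0.19), miR-378a-3p (0.19) and miR-345-3p (0.21) to miR-155-5p. Those nearest to miR-150-5p held 60.9%, 54.5% and 65.2% G and C in that order. Where a sequence was matched, those nearest to the miR-142a arms and miR-223-3p held 31.8% to 42.1%, and miR-345-3p held 59.1%. The part of base composition in these likenesses was not tested. Between members the SD of the log2 ratio was lowest for miR-150-5p and miR-155-5p (0.66), followed by miR-142a-5p and miR-223-3p (1.04) and the miR-142a arms (1.34), and highest for miR-142a-3p and miR-150-5p (3.41). The members' own levels had SDs of 2.85 for miR-142a-3p, 2.18 for miR-142a-5p, 1.48 for miR-223-3p, 0.78 for miR-150-5p and 0.25 for miR-155-5p on the log2 scale, which bear on these values.

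Within the 10 TAC and Sham libraries alone, which had no drug and no total under 2000000 counts, the SDs between members were 0.33 for the miR-142a arms, 0.37 for miR-142a-3p and miR-223-3p, 0.57 for miR-142a-5p and miR-223-3p, 0.56 for miR-150-5p and miR-155-5p and 0.93 for miR-142a-3p and miR-150-5p. The members' own SDs there were 0.32 for miR-142a-3p, 0.50 for miR-142a-5p, 0.25 for miR-223-3p, 0.74 for miR-150-5p and 0.29 for miR-155-5p. For the miR-142a arms the SD of the ratio was below that of miR-142a-5p and about that of miR-142a-3p, and for miR-142a-5p and miR-223-3p it was above both members' own. The nearest outside the 5 were miR-3068-3p for both miR-142a-3p (0.18) and miR-142a-5p (0.30), miR-652-3p for miR-223-3p (0.18), miR-149-5p for miR-150-5p (0.19) and let-7f-1-3p for miR-155-5p (0.11).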

How the data were processed

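Small RNA libraries were made from 500 ng of total RNA of frozen left ventricle, per the labels' protocols. The authors deposited unnormalised counts of reads for each mature microRNA and library: 1903 named lines were used and 24055 blank lines were left out. No value equals 1 and the smallest above 0 is 2. The submitters' processing notes name Bowtie 1.1.1, cutadapt 1.8, DESeq 1.26.0 and CASAVA 1.8.4, and their roles, the genome build and the microRNA annotation were not given in the sources used here. The deposited counts are labelled as merged miRge counts. How reads of near-identical microRNAs were assigned was not given in the sources used here.

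Counts were fitted in R 4.3.3 with edgeR 4.0.16: filterByExpr by group, TMM, and robust quasi-likelihood fitting over all 4 groups (17 residual degrees of freedom), with Benjamini-Hochberg adjustment over 561 microRNAs. CPM values are TMM-scaled, and ± after a fold change is the SE. The fit was tested on simulated data. Alternatives were other scalings, DESeq2 1.42.0, limma 3.58.1 (voom), no filter, fits of 2 groups, a GC correction (edgeR with offsets from a loess of log2 CPM, centred per microRNA, on GC content in each library, span 0.75) over the 487 tested microRNAs with a sequence, a replicate block, leaving out each library, and, added after the data were seen, leaving out the 4 libraries under 2000000 counts. Arm ratios used log2 counts plus 0.5, for hairpins with a mean of at least 10 counts per arm, and exact permutation tests adjusted over 18. The smallest p these tests allow is 0.00794 with 5 against 5 mice and 0.0476 with 2 against 5. Sequences came from RefSeq (GRCm38.p6), which matched 4 of the 5 members. No pair of libraries in a group matched within counting noise (lowest chi-square per degree of freedom 45.8).

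The members and the lists were chosen with earlier results of these data known. Named besides the members were called microRNAs of the lists, the other members of short lists, and the 3 microRNAs nearest to each member. miR-146a-5p, the 2 microRNAs at 0 in every library and miR-155-3p were named after their values were seen.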

Additional observations from a re-analysis of the deposited data

Results flagged for a closer look

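The fold changes of TAC+PDE5A-I and of TAC+PDE9A-I, each against the shared TAC hearts, differed for 3 of the 5 microRNAs in edgeR's test of that difference over all 561, where 19.6% of all tested microRNAs were lower. TAC+PDE5A-I was below TAC+PDE9A-I by a log2 fold change of -2.98 for miR-142a-3p (adjusted p = 0.0190), -4.08 for miR-142a-5p (adjusted p = 0.000624) and -2.09 for miR-223-3p (adjusted p = 0.00989). Every TAC+PDE5A-I heart was below 5 of the 6 TAC+PDE9A-I hearts for each of the 3, the exception being TAC+PDE9A-I replicate 5. In a fit of these 2 groups alone none of the 3 passed (adjusted p = 0.123, 0.0757 and 0.0966, edgeR). After the GC correction miR-142a-3p did not pass (-1.41, adjusted p = 0.0598, edgeR). miR-142a-5p (-1.49, adjusted p = 0.0243) and miR-223-3p (-0.81, adjusted p = 0.0337) did in the same test, where 32 of 487 microRNAs were called lower. The parts of the drugs and of library quality in these differences were not tested.

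TAC+PDE9A-I replicate 5 stood apart from the other 5 of its group by Dixon's criterion on the scale of log2(CPM + 1). It had 35.6 CPM of miR-142a-3p, 10.6 CPM of miR-142a-5p and 9.998 CPM of miR-223-3p. The gap to the next heart was 0.789, 0.673 and 0.760 of the group's range for these 3, past the 95% limit for 6 mice. It shares with TAC+PDE5A-I replicates 3, 4 and 5 a total under 2000000 counts, and the part of that in its values was not tested. On the CPM scale none of the 20 sets of 5 members and 4 groups had such a mouse, and on the log2 scale the other 17 sets had none; chance flags about 1 in 20, and the 3 sets share 1 library.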

How the results depend on the processing

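Calls of the 5 members. Of 156 counts of called members under other settings, 138 were within 1.5 times the main one. In TAC+PDE5A-I against TAC, 2 members were higher with upper-quartile scaling and 2 with scaling by total counts, and 0 without the 4 libraries under 2000000 counts. In TAC+PDE5A-I against TAC+PDE9A-I, 1 was higher with upper-quartile scaling, 0 were lower in the fit of the 2 groups alone and 1 was lower under the replicate block with GC correction. In TAC+PDE5A-I against Sham, 1 was higher with upper-quartile scaling, scaling by total counts, the fit of the 2 groups alone, the GC correction and the replicate block with GC correction. In TAC against Sham, 1 was lower with DESeq2 and 1 without the 4 libraries. The GC correction without the 4 libraries gave 1 lower in each of the 3 comparisons of TAC+PDE5A-I, and 1 higher against TAC+PDE9A-I and Sham. Leaving out each library gave 0 to 1 higher in TAC+PDE5A-I against TAC and against TAC+PDE9A-I. The cause was not tested. In TAC+PDE5A-I against TAC the median log2 fold change over all microRNAs was -0.31 with TMM, -0.46 with DESeq2 size factors and 0.16 with upper-quartile scaling.

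Reversed signs, none in a passing main result. miR-155-5p in TAC+PDE5A-I against TAC+PDE9A-I was -0.038 with DESeq2 size factors, -0.016 with DESeq2 and -9.91e-06 with no filter. Against Sham, TAC+PDE5A-I gave it 0.40 with upper-quartile scaling, 0.10 with total counts, 2.92 with the GC correction, 2.72 with block and GC correction and 1.39 with the GC correction without the 4 libraries. In TAC+PDE9A-I against Sham miR-155-5p was 1.25 with the GC correction and 0.73 with block and GC correction. In the same comparison miR-150-5p was 0.23 with upper-quartile scaling, 0.19 with total counts, 0.086 with no filter, 0.077 in the fit of 2 groups and 0.094 with the leading digit of the ear tag as covariate. miR-142a-3p there was -0.50 with limma voom and -0.74 with the ear tag digit, and miR-223-3p 0.0060 with total counts, 0.040 without the 4 libraries and 0.016 with the GC correction as well. In TAC+PDE9A-I against TAC miR-142a-3p was 0.085 with the GC correction, 0.11 with block and GC correction 0.19 without the 4 libraries and 0.18 with the GC correction as well. In TAC against Sham, the ear tag digit gave -0.10 for miR-142a-5p and -0.048 for miR-223-3p.

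Leaving out each library, ranges that crossed 0 were -0.085 to 0.35 (miR-142a-3p) and -0.25 to 0.22 (miR-142a-5p) in TAC against Sham, -0.37 to 0.18 (miR-142a-3p) in TAC+PDE9A-I against TAC, -0.12 to 0.15 (miR-155-5p) in TAC+PDE5A-I against TAC+PDE9A-I, and -0.13 to 0.40 (miR-142a-3p), -0.29 to 0.18 (miR-150-5p) and -0.32 to 0.13 (miR-223-3p) in TAC+PDE9A-I against Sham. Arm ratios crossed 0 for miR-142a (-0.21 to 0.043 in TAC against Sham, and in TAC+PDE5A-I -0.58 to 1.27 against TAC, -0.21 to 1.65 against TAC+PDE9A-I and -0.64 to 1.22 against Sham), miR-150 (-0.33 to 0.24 in TAC against Sham, -0.12 to 0.45 in TAC+PDE9A-I against TAC) and miR-223 (-0.23 to 0.14 in TAC+PDE9A-I against Sham). Without the 4 libraries the miR-142a ratio in TAC+PDE5A-I was -2.10 against TAC, -1.71 against TAC+PDE9A-I and -2.16 against Sham.

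Pairing and limits. Same-numbered mice deviated together with correlations of -0.21 to 0.35, over 0.1 in at most 3 of 5 pairs of a comparison, so the numbers do not pair the mice. The replicate block changed no call of a member, gave -3.71 for miR-142a-3p in TAC+PDE5A-I against TAC and -0.24 for it in TAC+PDE9A-I against Sham, and -0.11 for the miR-223 arm ratio there. The 4 libraries under 2000000 counts, 3 of them from TAC+PDE5A-I, hold at most 57 counts of miR-142a-3p, 19 of miR-142a-5p and 16 of miR-223-3p, which limits their precision. No GC-corrected value was had for miR-150-5p. In the fits without a library the rest of a group stands for it.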
